A study of Mus musculus with 4 samples.

Results

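A group of 9 genes of retinoid synthesis, binding and reception was followed in mouse liver cell lines: Aldh1a1, Aldh1a2, Aldh1a3, Crabp1, Crabp2, Rara, Rarb, Rarg and Stra6. They were chosen by gene symbol, taking every probe set whose platform annotation names 1 of these genes and no other. The 9 genes had 12 probe sets, out of 18193 named genes and 45101 probe sets in all. Aldh1a3 had 3 probe sets, Rarg had 2, and each of the other genes had 1.

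RNA was measured on 4 Affymetrix Mouse430_2 arrays, from 5 μg of total RNA each. Resident liver stem cells (RLSC) were represented by 2 lines on 1 array each: MetE14/3, derived from clone B2 of a cyto-Met transgenic liver, and WTE14/1, from liver without the transgene. Both livers were those of embryos of 14 days post coitum, and the second label reads WT for wild type. That sample is WTE14/1 by title but WT E14/3 by source name, and it carries the title's name here. MMH-D3, a differentiated hepatocytic line, was on 2 arrays, and no label says that these were independent cultures, so their spread may be technical only. The labels give neither the genotype nor the embryonic age of MMH-D3, and they describe primary culture by the method used to immortalize hepatocytes with a truncated Met receptor. They do not name the promoter of the transgene. Palmate colonies of the RLSC lines were expanded in DMEM with 10% serum for about 50 generations. A serum content of 10% is recorded for all 4 arrays, MMH-D3 included, and the medium of either group at harvest is not given. The group difference therefore also holds that of the lines, and any of genotype or medium, which the labels leave unstated.

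Retinol reaches cells bound to the plasma carrier RBP4 and can enter through the receptor STRA6. Retinol dehydrogenases oxidize it to retinal, and the ALDH1A enzymes oxidize retinal to retinoic acid, which CRABP1 and CRABP2 bind in the cytosol. Retinoic acid acts through the nuclear receptors RARα, RARβ and RARγ, which pair with RXR on response elements in DNA, and CYP26 enzymes break it down. In the liver, hepatocytes make RBP4 and stellate cells store vitamin A as retinyl ester.

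The response element of Rarb is the best-known site of this pathway, and Aldh1a1 had the largest group difference among the members tested, so their promoters are shown. Both are RefSeq sequences of build GRCm38.p6, the 250 bases before 1 annotated transcript start. The arrays measured no binding at them. In the Rarb sequence (chr14:16575477-16575726, minus strand), capitals mark a direct repeat of receptor hexamers with a spacer of 5 bases. In the Aldh1a1 sequence (chr19:20601718-20601967, plus strand), capitals mark a single hexamer, read on the opposite strand.

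Rarb: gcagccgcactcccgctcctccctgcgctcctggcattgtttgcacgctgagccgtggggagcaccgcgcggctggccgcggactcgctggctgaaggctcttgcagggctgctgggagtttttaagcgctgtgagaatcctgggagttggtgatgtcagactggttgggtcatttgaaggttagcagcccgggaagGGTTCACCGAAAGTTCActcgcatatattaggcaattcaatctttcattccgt

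Aldh1a1: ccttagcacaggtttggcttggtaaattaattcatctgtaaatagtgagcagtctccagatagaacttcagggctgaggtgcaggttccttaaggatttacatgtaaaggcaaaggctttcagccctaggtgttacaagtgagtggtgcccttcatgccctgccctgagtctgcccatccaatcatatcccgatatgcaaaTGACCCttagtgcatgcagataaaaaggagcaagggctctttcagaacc

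The hexamers AGGTCA or GGGTCA or AGTTCA or GGTTCA were searched on both strands of windows running from 250 bases before to 50 bases after each start. RefSeq windows were found for 7 of the 9 genes, 15 windows in all. At least 1 hexamer lay in 6 of these 15 windows, while 43.7% of all 32851 windows held one. The direct repeat with a spacer of 5 bases was found in Rarb alone among these 15 windows, from base -53 to base -37 before the start, and in 0.0974% of all windows. Its 2 hexamers are in capitals in the next line, which runs over chr14:16575513-16575529 on the minus strand.

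Rarb element: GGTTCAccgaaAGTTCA

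Direct repeats with a spacer of 1 or 2 bases, counting overlaps with other repeats, were found in none of the 15 windows and in 0.222% and 0.268% of all windows. These matches describe letters in the windows only.

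The 4 arrays fell into 2 batches by their poly-A control probe sets, whose signals were higher by a median of 10.4 times on MMH-D3 array 1 and MetE14/3 (batch A) than on MMH-D3 array 2 and WTE14/1 (batch B). Either batch thus paired an RLSC array with an MMH-D3 array. Values are deposited signals, and differences are RLSC minus MMH-D3 on the quantile-normalized log2(signal + 4) scale, which understates changes of low genes. Whether the groups overlap was counted on the normalized scale unless deposited signals are named. A probe set was tested where its mean on the normalized scale reached the 40th percentile of all probe sets. That level corresponds to a signal of 11.7 after normalization. Set against deposited signals, 11.7 is approximate only, since normalization shifted each array differently. The filter was passed by 5 members: Aldh1a1, Rara, Rarb, Rarg and Stra6.

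**Figure D1:**
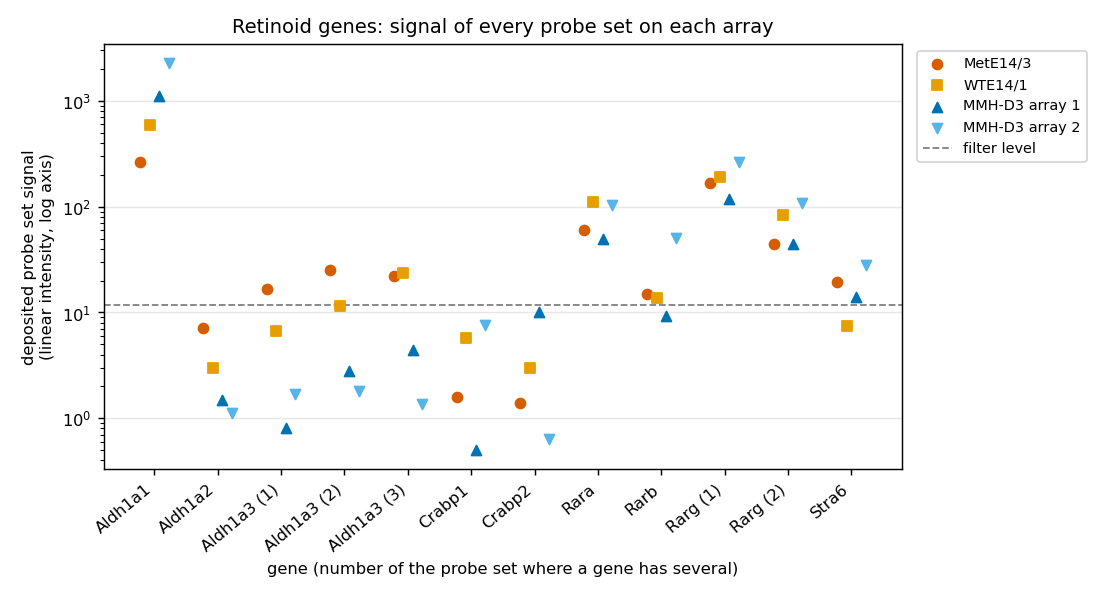
Deposited signal (linear intensity on a log axis) of each of the 12 probe sets of the 9 retinoid genes on the 4 arrays, 1 symbol per array, with the filter level of 11.7 as a dashed line. Aldh1a1, Rara and Rarg lie above the line on all 4 arrays, and for Aldh1a1 both RLSC arrays lie below both MMH-D3 arrays.

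No member passed the test between the groups. At an adjusted p under 0.05, limma called 0 of the 5 members higher in RLSC and 0 lower, while 0.397% of the 12598 genes tested were higher and 0.516% lower. At an unadjusted p under 0.05 the count was 1 of 5, Aldh1a1, beside 12.4% of all genes tested. With every probe set fitted on its own, 0 of the 6 member probe sets past the filter passed, beside 0.733% of 27022 probe sets. The median difference of the 5 members was -0.70, against 0.031 over all genes tested, with 0.22 in batch A alone and -1.63 in batch B alone. Over all 9 members, fitted without a filter, the median was -0.15, against 0.0049 over all genes of that fit.

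Among the enzymes that make retinoic acid, Aldh1a1 had the clearest signal. The signal of probe set 1416468_at was 266 for MetE14/3 and 594 for WTE14/1, while MMH-D3 arrays 1 and 2 read 1117 and 2267. Both RLSC arrays lay below both MMH-D3 arrays, a pattern shared by 21.4% of all genes tested, and the MMH-D3 mean of 1692 ± 813 was 3.94 times the RLSC mean of 430 ± 232 (SD, n = 2 each). The difference was -1.98 (SE 0.57, limma adjusted p = 0.223), so it did not pass. Batch A gave -2.01 and batch B -1.94. With batch as a block the SE was 0.38 and the limma adjusted p = 0.0804, and the adjusted p ran from 0.0804 to 0.672 over the alternatives tried.

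Aldh1a3, a second retinal-oxidizing enzyme, went the other way at low signal. Its probe set 1448789_at read 22.3 in MetE14/3 and 23.4 in WTE14/1, while MMH-D3 arrays 1 and 2 read 4.4 and 1.37. Probe set 1427395_a_at read 25.1 and 11.5 in the lines against 2.8 and 1.83, and probe set 1417642_at read 16.8 and 6.63 against 0.8 and 1.68. In all 3 probe sets both RLSC arrays lay above both MMH-D3 arrays, as did 18.9% of the 18193 genes fitted without a filter. The MMH-D3 signals all lay under 11.7, as did WTE14/1 for probe sets 1427395_a_at and 1417642_at, so the size of the difference depends on the pseudocount.

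Without a filter, Aldh1a3 (probe set 1448789_at) differed by 1.80 (SE 0.59, limma adjusted p = 0.361), 1.54 within batch A and 2.06 within batch B. Probe set 1427395_a_at differed by 1.60, with 2.02 in batch A and 1.18 in batch B. Probe set 1417642_at differed by 1.44, with 2.18 and 0.71. The fit of 1 probe set a gene without a filter called 0.0495% of its genes and none of the 9 members. Of the members, Aldh1a1 and Aldh1a3 had an unadjusted limma p under 0.05, beside 10.5% of all genes of the fit. Aldh1a2, the main retinoic acid-making enzyme of the early embryo, was under 11.7 on all 4 arrays (7.1 in MetE14/3, 2.98 in WTE14/1, 1.5 and 1.13 in MMH-D3). Its difference without a filter was 0.65 (SE 0.48, limma adjusted p = 0.747), with both RLSC arrays above both MMH-D3 arrays.

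The probe sets of the cytosolic binding proteins were near the bottom of the scale. Crabp1 (1448326_a_at) read 1.6 in MetE14/3 and 5.76 in WTE14/1, while 0.5 and 7.61 were read on MMH-D3 arrays 1 and 2. Crabp2 (1451191_at), whose product carries retinoic acid to its receptor, read 1.4, 2.97, 10.0 and 0.63 in the same order. Groups overlapped for both genes, and all 8 of these signals lay under 11.7. Differences without a filter were -0.031 (SE 0.57) for Crabp1 and -0.56 (SE 0.66) for Crabp2, and each had opposite signs in the 2 batches.

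The retinoic acid receptors Rara and Rarg were above the filter level on all 4 arrays and overlapped between the groups. Rara (1450180_a_at) read 60.1 in MetE14/3 and 110 in WTE14/1, and MMH-D3 arrays 1 and 2 read 49.6 and 104. Its difference was -0.029 (SE 0.53, limma adjusted p = 0.994), or -0.044 in batch A and -0.014 in batch B, and it turned to 0.17 without between-array normalization. Rarg, first probe set (1419415_a_at), read 166 and 190 in the lines and 119 and 266 in MMH-D3. The second Rarg probe set (1419416_a_at) read 44.7 and 83.4 in the lines and 44.1 and 108 in MMH-D3. The Rarg difference was -0.15 (SE 0.50, limma adjusted p = 0.956).

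For Rara and for both Rarg probe sets, the 2 arrays of batch B lay above the 2 arrays of batch A, in RLSC and MMH-D3 alike. This order was found for 17% of all genes tested. Batch B was higher than batch A by 0.65 for Rara and 0.49 for Rarg on the normalized scale, beside -0.017 for the median gene. For these 2 receptors the differences between batches were larger than those between RLSC and MMH-D3. What the batches stand for beyond the poly-A controls was not tested.

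Rarb, the receptor gene that carries the element shown above, read 14.9 in MetE14/3 and 13.8 in WTE14/1, while 9.3 and 50.1 were read on MMH-D3 arrays 1 and 2 (probe set 1454906_at). MMH-D3 array 2 stood alone, and the other 3 arrays lay close to the filter level. The difference of -0.70 (SE 0.74, limma adjusted p = 0.807) turned to 0.16 without MMH-D3 array 2. Within the batches it was 0.39 (A) and -1.79 (B).

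Stra6, the retinol uptake receptor, read 19.4 in MetE14/3 and 7.43 in WTE14/1, and the MMH-D3 arrays read 14.0 and 28.2 (probe set 1422723_at). The groups overlapped, since MetE14/3 lay between the MMH-D3 arrays. The difference was -0.70 (SE 0.68, limma adjusted p = 0.787), 0.22 for batch A and -1.63 for batch B. It was -0.023 without WTE14/1, the lowest of the 4 arrays, and -1.41 without MetE14/3, so its size rested on which RLSC line was kept.

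**Figure D2:**
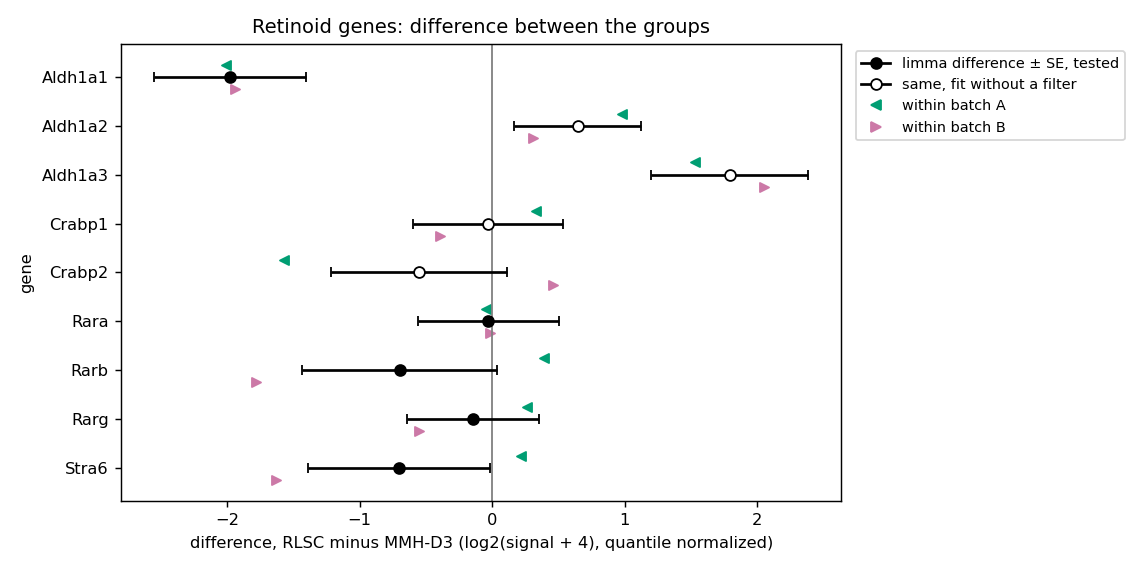
Difference between RLSC and MMH-D3 (log2(signal + 4), quantile normalized) of the 9 retinoid genes, as points with limma standard errors (filled for the 5 genes tested, open for the 4 genes fitted only without a filter), with the difference within batch A and within batch B as triangles. Aldh1a1 lies near -2 in both batches and Aldh1a3, by its brightest probe set, above 1.5 in both. Crabp1, Crabp2, Rarb, Rarg and Stra6 have opposite signs in the batches.

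The lines MetE14/3 and WTE14/1, with 1 array each, could only be described. MetE14/3 was in batch A and WTE14/1 in batch B, so line and batch cannot be told apart. On the normalized log2(signal + 4) scale, none of the 5 members past the filter was at least 4-fold apart between them, against 5.13% of all genes tested. On that scale none was 4-fold apart between the MMH-D3 arrays either, where the share over all genes was 5.96%, although the deposited Rarb signals of those arrays differed 5.39-fold. Stra6 was 1.36 higher and Aldh1a1 1.16 lower in MetE14/3 than in WTE14/1 on the log2(signal + 4) scale, and array 1 minus array 2 of MMH-D3 was -0.48 for Stra6 and -1.10 for Aldh1a1. The Stra6 value between the lines was 0.50 with a pseudocount of 32. MetE14/3 minus WTE14/1 was -0.66 for Rara, 0.47 for Rarb and -0.089 for Rarg, and array 1 minus array 2 of MMH-D3 was -0.63, -1.71 and -0.90 for the same 3 genes.

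Other genes of the pathway were listed by role, 93 genes in 8 roles without the members. Of these, 82 had a probe set named here and 60 passed the filter. Rbp4 was lower in RLSC, none was higher and 59 did not pass, with shares of 0.516% lower and 0.397% higher over all genes. The median difference was -0.29, beside 0.031 over all genes tested. Both RLSC arrays lay below both MMH-D3 arrays for 20 of the 60 genes and above both for 6, where the shares over all genes were 21.4% and 20.8%. Of the 20, 7 were among the 9 other aldehyde dehydrogenases tested, a list with a median of -1.32. Whether those enzymes act on retinal in these cells was not measured. On deposited signals the counts over the 60 genes were 16 below and 8 above, beside 17.2% and 23.1% of all genes. Medians of the single roles, in what follows, shift with the filter, the batch or both.

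Carriers and uptake genes had a median difference of -1.15 over 6 tested, -0.34 in batch A and -1.84 in batch B, but -0.040 over all 10 with a probe set when no filter was set. Rbp4, the plasma carrier of retinol, read 180 in MetE14/3, 31.2 in WTE14/1 and 4307 and 5702 in MMH-D3, and its difference was -6.07 (SE 0.86, limma adjusted p = 0.0432). This call was lost without MMH-D3 array 1, without MMH-D3 array 2, with a pseudocount of 1, without a filter and without the intensity trend. Ttr, which binds RBP4 in plasma, differed by -2.70 (SE 0.83) without passing, and was named after its values were seen. The lipoprotein receptor gene Scarb1, whose product also takes up carotenoids, differed by 0.96 (SE 0.60). Storage genes had a median of -0.67 over 4 tested, none passing, and -0.32 over 5 without a filter. Plin2, a lipid droplet coat protein, read 3340 and 2309 in the lines and 6396 and 5494 in MMH-D3, and differed by -1.02 (SE 0.28). The lipase gene Pnpla2 differed by -0.29 (SE 0.42). Lrat, the enzyme that makes retinyl ester, lay below the filter.

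Genes of retinol and retinal oxidation and reduction, counted together whichever way they act, had a median of -0.42 over 11 tested, none passing. It was -0.29 over 18 without a filter. The median of the 11 turned sign between the batches, with 0.078 in batch A and -0.96 in batch B. Rdh10, the main retinol dehydrogenase of the embryo, read 2294 and 694 in MetE14/3 and WTE14/1 and 4442 and 2000 in MMH-D3, and its groups overlapped. Its difference was -1.19 (SE 0.64, limma adjusted p = 0.542). Adh5, an alcohol dehydrogenase of broad expression, differed by 0.26 (SE 0.33).

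The 9 other aldehyde dehydrogenases tested had a median of -1.32, none passing, and for 7 of them both RLSC arrays lay below both MMH-D3 arrays, beside 21.4% of all genes. The median came to -0.54 in batch A and -1.96 in batch B. The mitochondrial enzyme gene Aldh2 read 1310 and 554 in the RLSC lines and 2018 and 3196 in MMH-D3, and differed by -1.55 (SE 0.52, limma adjusted p = 0.289). Aldh9a1 differed by -0.74 (SE 0.41). Aldh1a7, named after its values were seen, is the closest relative of Aldh1a1 and its neighbour in the gene table, with 0 protein-coding genes between them. It read 71.3 in MetE14/3, 330 in WTE14/1, and 459 and 2550 in the MMH-D3 pair.

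The Aldh1a7 difference was -2.84 (SE 1.0, limma adjusted p = 0.317), and it passed with batch as a block (limma adjusted p = 0.0467). Its adjusted p was not under 0.05 in any other fit of all 4 arrays or of 3. Aldh1a1 and Aldh1a7 had the same order of the 4 arrays. Their transcripts are alike, and whether either probe set also takes up RNA of the other gene was not tested, so their signals may not be separate measures.

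**Figure D3:**
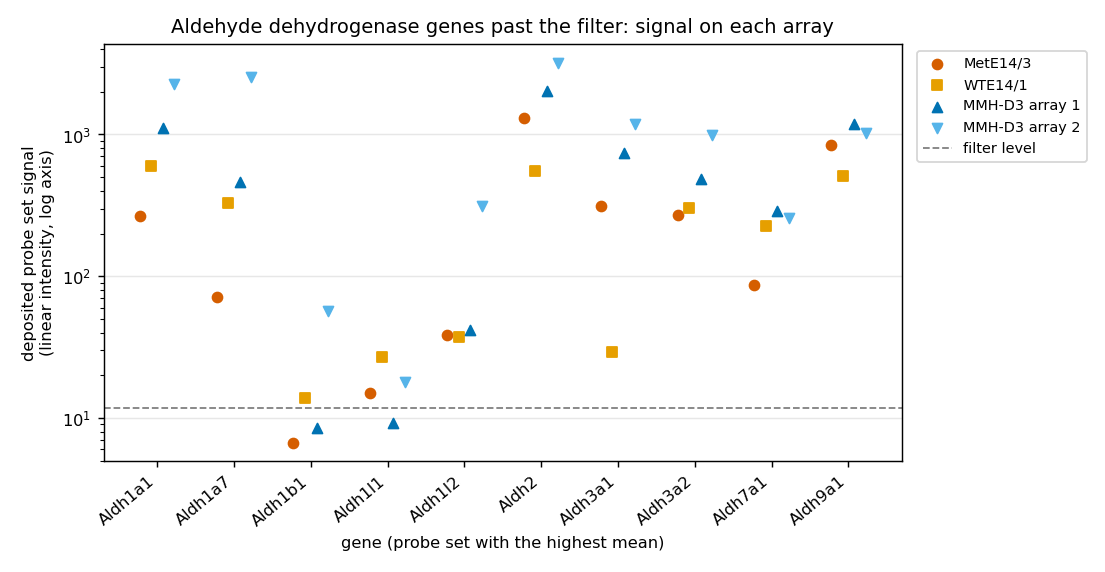
Deposited signal (linear intensity on a log axis) of Aldh1a1 and the 9 other aldehyde dehydrogenase genes past the filter on the 4 arrays, 1 symbol per array, with the filter level of 11.7 dashed. Both RLSC arrays lie below both MMH-D3 arrays for Aldh1a1 and for 7 of the 9 others, and Aldh1b1 and Aldh1l1 overlap.

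Retinoic acid breakdown was measured by 2 genes past the filter, which differed in opposite directions without passing. Cyp26b1, which degrades retinoic acid and is itself induced by it, read 52.7 in MetE14/3 and 73.0 in WTE14/1, and 1.1 and 8.23 in the MMH-D3 pair. Its difference was 2.95 (SE 0.63, limma adjusted p = 0.118), and its MMH-D3 signals lay under 11.7. Cyp2s1, a cytochrome P450 of epithelia, read 165 and 13.4 in the lines against 1032 and 4485 in MMH-D3. Its difference was -5.42 (SE 1.24, limma adjusted p = 0.135), and it passed without MetE14/3. Cyp26a1 lay below the filter.

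Receptor partners and other nuclear carriers had a median of 0.40 over 7 tested, which was 0.099 over 9 without a filter, -0.034 in batch A and 0.83 in batch B. Receptor coregulators had a median of 0.014 over 9, 0.16 in batch A and -0.32 in batch B. None passed in either list. Fabp5, a lipid carrier that can also bring retinoic acid to PPARδ, differed by 0.79 (SE 0.46), and the orphan receptor gene Nr2f6 by 0.10 (SE 0.44). Rxra, encoding the main RXR partner of the liver and named after its values were seen, read 142 and 154 in the lines and 97.5 and 80.9 in MMH-D3, and differed by 0.56 (SE 0.47). Of the 7 receptor partners and carriers tested, 5 had positive differences and 2 negative. The negative ones were Rxrb (-0.40, SE 0.42) and Ppard (-1.29, SE 0.51), also named after their values were seen. The corepressor subunit genes Tbl1x and Hdac3 differed by -0.11 (SE 0.34) and 0.035 (SE 0.38).

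Genes known to be induced by retinoic acid had a median of 0.43 over 17 tested, with 0 passing, and of 0.15 over 25 without a filter. The median of the 17 was 0.44 in batch A and 0.50 in batch B. Unadjusted limma p was under 0.05 for 3 of the 17, beside 12.4% of all genes tested. Of these, Bhlhe40 was lower in RLSC, and Cyp26b1 and Foxa1 were higher. Foxa1, named after its values were seen, differed by 3.82 (SE 1.16, limma adjusted p = 0.242). Its signal was 568 in MetE14/3 but 67.5 in WTE14/1, against 2.3 and 21.9 on MMH-D3 arrays 1 and 2. Within the batches the Foxa1 difference was 6.34 (A) and 1.29 (B). Both RLSC arrays lay above both MMH-D3 arrays for 4 genes and below both for 3, beside 20.8% and 21.4% of all genes. On deposited signals 4 lay above and 1 below, beside 23.1% and 17.2% of all genes. Bhlhe40, a transcriptional repressor also known as Stra13, read 327 and 312 in the lines against 1111 and 2287 in MMH-D3, and differed by -2.33 (SE 0.48, limma adjusted p = 0.110). The transglutaminase gene Tgm2 read 1242 in MetE14/3, 202 in WTE14/1, and 169 and 543 in MMH-D3, and its groups overlapped. The list had no common direction: 11 of its differences were positive and 6 negative.

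**Figure D4:**
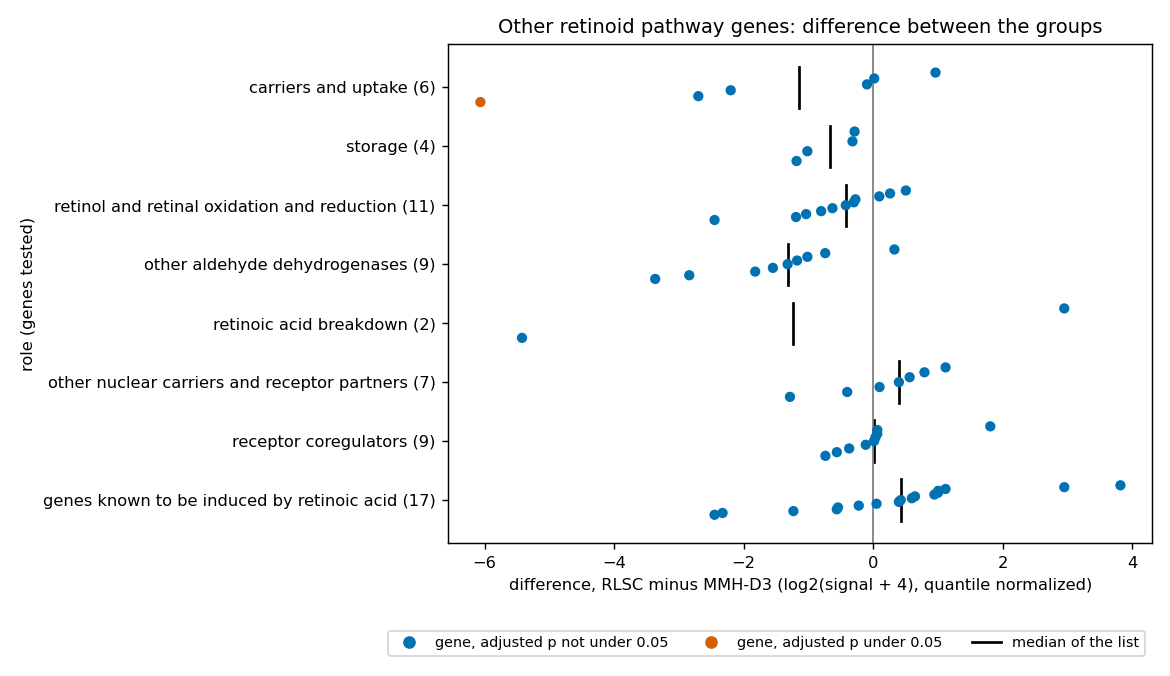
Difference between RLSC and MMH-D3 (log2(signal + 4), quantile normalized) of each retinoid pathway gene tested, 1 point a gene in rows by role with the number of genes tested, and the median of each list as a bar. Rbp4 is the one gene coloured as passing, the other aldehyde dehydrogenases have a median of -1.32, and genes induced by retinoic acid lie on both sides of 0.

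By centred log2 values over the 4 arrays, the 5 genes nearest to Aldh1a1 were Klb, Syt8, Vcam1, Prss29 and Kif21a, at Euclidean distances of 0.17 to 0.29. In MetE14/3, Klb, Syt8 and Prss29 read only 6.3, 7.1 and 2.3, where the added 4 compresses differences. Vcam1 and Kif21a read 372 and 38.2 on that array. Within a distance of 1 of Aldh1a1 there were 190 of 12597 genes.

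Hepatocyte, mesothelial and cholangiocyte markers had higher summed signals in MMH-D3, as Aldh1a1 did. Summed signals of 11 hepatocyte markers were 583 and 286 in the RLSC lines and 9833 and 15524 in MMH-D3. Those of 10 mesothelial markers were 3679 and 2649 against 14327 and 18946, and of 7 cholangiocyte markers 9385 and 4490 against 20828 and 27873. Bright genes carried these sums: without the brightest of each list they were 402 and 255 against 5526 and 9823 (hepatocyte, without Rbp4, itself a pathway gene), 716 and 543 against 8254 and 7791 (mesothelial, without Msln) and 2215 and 1590 against 10066 and 15105 (cholangiocyte, without Krt19). On deposited signals both RLSC arrays lay below both MMH-D3 arrays for 7 of 11, 6 of 10 and 5 of 7 of these markers, and above both for 1 in each list. Of all genes past the filter, 17.2% lay below and 23.1% above, but some of these markers did not pass it. The cholangiocyte marker Sox9 read 123 and 220 in the lines against 27.6 and 13.5, and the mesothelial marker Tbx18 read 77.6 and 90.3 against 9.8 and 6.15. The hepatocyte product Alb read 1.7 and 2.91 in the RLSC lines and 44.7 and 440 in MMH-D3. Of the hepatocyte markers, 3 were under 11.7 on each MMH-D3 array, 6 in MetE14/3 and 5 in WTE14/1.

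Fibroblast markers (8 genes) summed to 5504 and 8153 in the RLSC lines and 897 and 1403 in MMH-D3, most of it from the matrix protein gene Fn1, and without Fn1 to 71.0 and 226 against 71.4 and 134. Stellate markers (12 genes) summed to 330 and 235 in the lines and 99.8 and 133 in MMH-D3, with 6 to 10 of them under 11.7 on each array. Without Pdgfrb they summed to 81.7 and 169 against 99.6 and 132, so the higher sum of MetE14/3 rested on that gene. Endothelial markers (8 genes) ran from 42.5 to 124 and blood cell markers (9 genes) from 140 to 200 over the 4 arrays. The part of these marker differences in the Aldh1a1 result was not tested. In such bulk RNA, fewer cells of a type and less RNA per cell cannot be told apart.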

How the data were processed

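The data were probe set signals of 4 arrays. Per the submitters' processing notes, the authors made them with GCOS, the Affymetrix array software, and deposited them on a linear intensity scale. Neither those notes nor the labels state its version, algorithm or settings. Detection calls were not analysed here. Trimmed of 2% of probe sets at either end, mean signals were 199.9 to 200.8, and median signals ran from 16.9 to 28.0. The number of arrays limits the precision.

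Of 45101 probe sets, the 64 controls entered no test. The platform annotation gave 1 symbol to 34945, several to 932 and none to 9160. By Entrez identifier 34741 matched a RefSeq table of GRCm38.p6, with 0 symbols changed. Signals entered as log2(signal + 4), were quantile normalized because array medians differed by 0.61 on the log2 scale, and were filtered at a mean of the 40th percentile. Of several probe sets of a gene, the brightest on average was kept. Groups were compared with limma 3.58.1 in R 4.3.3 (lmFit, eBayes with an intensity trend, two-sided, Benjamini-Hochberg over all genes tested, threshold 0.05), with 2 residual and 4.24 prior degrees of freedom. The fit code was also run on simulated data that held no batches, which checks the code and not the results given here. Fits with batch as a block or with an array left out had fewer residual degrees of freedom than the main fit. The p-values reflect no more than the spread among these arrays.

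Members and lists were chosen with earlier results of these data known, as was the poly-A batch. Of each role, passing genes were named, up to 4, or the genes with the highest mean up to 2 in all. Alternatives varied normalization, pseudocount, filter, probe set choice, trend, batch and arrays.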

Additional observations from a re-analysis of the deposited data

How the results depend on the processing

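No member passed in any fit tried, and Aldh1a1 kept its sign in the 10 alternatives that moved its value (-2.61 to -1.40). For Aldh1a2 the only 2 alternatives were the differences within batch A (0.98) and within batch B (0.31). For Aldh1a3 the 3 alternatives were those within the batches (1.54 and 2.06) and the fit without MMH-D3 array 2 (1.34). Neither gene passed the main filter. Changes of normalization or pseudocount and other omissions of an array gave no value for them, so their signs there were not tested. Receptor and binding protein signs did not hold. Rara turned to 0.17 without between-array normalization and ran from -0.37 to 0.30 as each array was left out; the same range was -1.58 to 0.16 for Rarb and -0.58 to 0.31 for Rarg. Within batch A the sign turned for Crabp1 (0.33), Rarb (0.39), Rarg (0.26) and Stra6 (0.22), and within batch B for Crabp2 (0.46). The causes were not tested.

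Genes past the threshold numbered 115, against 9 without a filter and 198 probe sets fitted singly, and 0 to 206 as each array was left out: 0 without either MMH-D3 array, 206 without MetE14/3 and 27 without WTE14/1. With 1 array left in a group, that array is assumed to vary like the others. The pathway count of 1 was 0 with a pseudocount of 1, without a filter and without the trend, 2 with batch as a block, and 0 to 3 as each array was left out. The pathway median of -0.29 was -0.078 over all its probe sets and -0.061 within batch A. Genes at least 4-fold apart between the RLSC lines numbered 646, against 400 and 275 with pseudocounts of 16 and 32.

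Crabp1, Crabp2 and Aldh1a2 lay under 11.7 on all arrays, where the added 4 compresses differences most.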
